A study of Homo sapiens with 6 samples.

Results

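The 39 genes described here encode integrin chains, laminin chains, basement membrane proteins, syndecans, dystroglycan and matrix glycoproteins. They were chosen by symbol from a fixed list of names, and all 39 were found among the 56478 gene symbols of the count table. The list leaves out the hemidesmosome genes. RNA came from BT20, an established line of human breast carcinoma cells of the triple negative kind, kept in serum-containing medium. The cells carried a hairpin against cytokeratin 5 (shCK5-22, vector label pLK0-shCK5-425222, 3 libraries) or a control hairpin (shControl, vector label pLK0-shControl, 3 libraries), with no other treatment. The model is a single line with 1 hairpin per arm, so an effect of that hairpin on other transcripts and an effect of KRT5 loss cannot be told apart.

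Integrins are cell surface receptors made of an alpha and a beta chain, and the pair decides which matrix protein is bound. Laminins are trimers of an alpha, a beta and a gamma chain, and with nidogens, perlecan, agrin and collagen IV they build the basement membrane on which epithelial cells sit. Syndecans and dystroglycan bind the same matrix through sugar chains and work beside integrins. In breast epithelium these proteins hold basal cells to the basement membrane.

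Libraries held between 47703937 and 65541734 counts. KRT5, the targeted gene, stood at 21.05, 22.7 and 24.09 CPM in the shCK5-22 libraries, against 230.7, 246.6 and 244.3 CPM in the shControl libraries (CPM, counts scaled to the depth of each library with TMM factors). KRT5 was 10.7-fold lower (log2 fold change -3.41, SE 0.0448, adjusted p = 1.23e-20). All 8 epithelial markers were detected, with summed levels of 9000 to 9630 CPM in shCK5-22 and 10200 to 10700 CPM in shControl. Of the epithelial markers 5 of 8 were lower, of the 5 tested fibroblast markers 2 were higher and 2 lower, and of the 6 tested endothelial markers 1 was lower in shCK5-22 (background 17.4% of all genes tested higher, 16.8% lower). Leaving out shCK5-22 replicate 1, 2 epithelial markers were higher (background 16.8%) and 5 lower (background 16.7%). Among the fibroblast markers PDGFRB had 80, 46 and 66 counts in shCK5-22 libraries against 0, 6 and 4 counts in shControl libraries, and LUM had 26, 16 and 24 against 4, 4 and 10 counts. PDGFRB and LUM entered the test only through the shCK5-22 libraries, so a difference was built into their inclusion. The 2 lower fibroblast markers were COL1A1 and FAP. COL1A1, the best expressed of the list, averaged 26.95 CPM in shCK5-22 and 32.01 CPM in shControl. FAP averaged 0.871 and 1.59 CPM. The 12 leukocyte markers summed to 4.47 to 6.46 and 5.37 to 6.15 CPM, the 9 fibroblast markers to 29.2 to 30.3 and 33.1 to 34.5 CPM, and the 7 endothelial markers to 19.9 to 32.3 and 24.3 to 31.9 CPM, in shCK5-22 and shControl libraries. Of the leukocyte markers CD3D, MS4A1, CD68 and FCGR3A, and of the fibroblast markers PDGFRA and THY1, were listed at 0 in every library. In bulk RNA, fewer cells of a type and less RNA per cell cannot be told apart, and the part of these marker levels in the results was not tested. shCK5-22 replicate 1 stood apart: its counts differed from those of replicates 2 and 3 by a chi-square of 33.7 and 19.8 per degree of freedom, against 5.08 between replicates 2 and 3. Counts over the set, its classes and the related gene lists are therefore also given without it where they differ.

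Some values listed at 0 are not levels. Of 73 ribosomal protein symbols, which every cell needs, 6 were listed at 0 in all libraries, among them RPS4X and RPL32. A value at or near 0 is therefore given as listed and not read as absence. ITGA5, the alpha chain of the main fibronectin receptor, and ITGB3, a partner of ITGAV, were listed at 0 in all 6 libraries. In the GENCODE annotation 51.6% of the exon bases of ITGB3 overlap another gene on the same strand, and 0.6% of those of ITGA5 overlap another gene. No level is therefore given for either.

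Of the 39 genes, 34 passed the filter on low counts. Those not tested were ITGA4, ITGA5, ITGA8, ITGB3 and SPARC. Among the 34, 5 were higher in shCK5-22 (background 17.4% of all genes tested) and 9 were lower (background 16.8%), by edgeR's quasi-likelihood test at an adjusted p under 0.05. Without shCK5-22 replicate 1 these counts were 3 higher (background 16.8%) and 15 lower (background 16.7%). The groups did not overlap for 17 of the 34 (background 45.1%). The members that passed the filter include genes listed at low counts. Of the 22 genes with a mean of at least 5 CPM, 11 changed, 3 higher (background 24.8%) and 8 lower (background 22.2%), where 47.0% of all genes at that level changed. Without shCK5-22 replicate 1, 2 of these 22 were higher (background 25.1%) and 14 lower (background 23.2%). With all 6 libraries the share that changed in either direction was near the background, and without that library more of the set was lower than among all genes at that level. That count left out a library of 1 group only. Among the genes lower only in it, ITGA2, ITGA3, ITGAE, ITGB8 and LAMB2 had their highest shControl value in replicate 1, which was kept. ITGB1 did not. The median log2 fold change of the 22 was -0.12, against 0.01 for all genes at that level.

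The results turn on a few genes of each class. Among receptors, ITGA1 and ITGAV were higher and ITGB5, ITGB6 and ITGB7 lower in shCK5-22. Among matrix proteins LAMA4, HSPG2 and TGFBI were lower, and LAMC1 was slightly higher. Of the syndecan and dystroglycan genes SDC4 was higher and SDC1, SDC3 and DAG1 were lower. SDC2, on few counts, passed upward but entered the test only through the shCK5-22 libraries. ITGB7, also on few counts, met the filter on low counts through the shControl libraries. Of the 4 genes with the highest level per exon length, SDC4 changed and ITGB1, FN1 and ITGA3 did not pass.

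**Figure D1:**
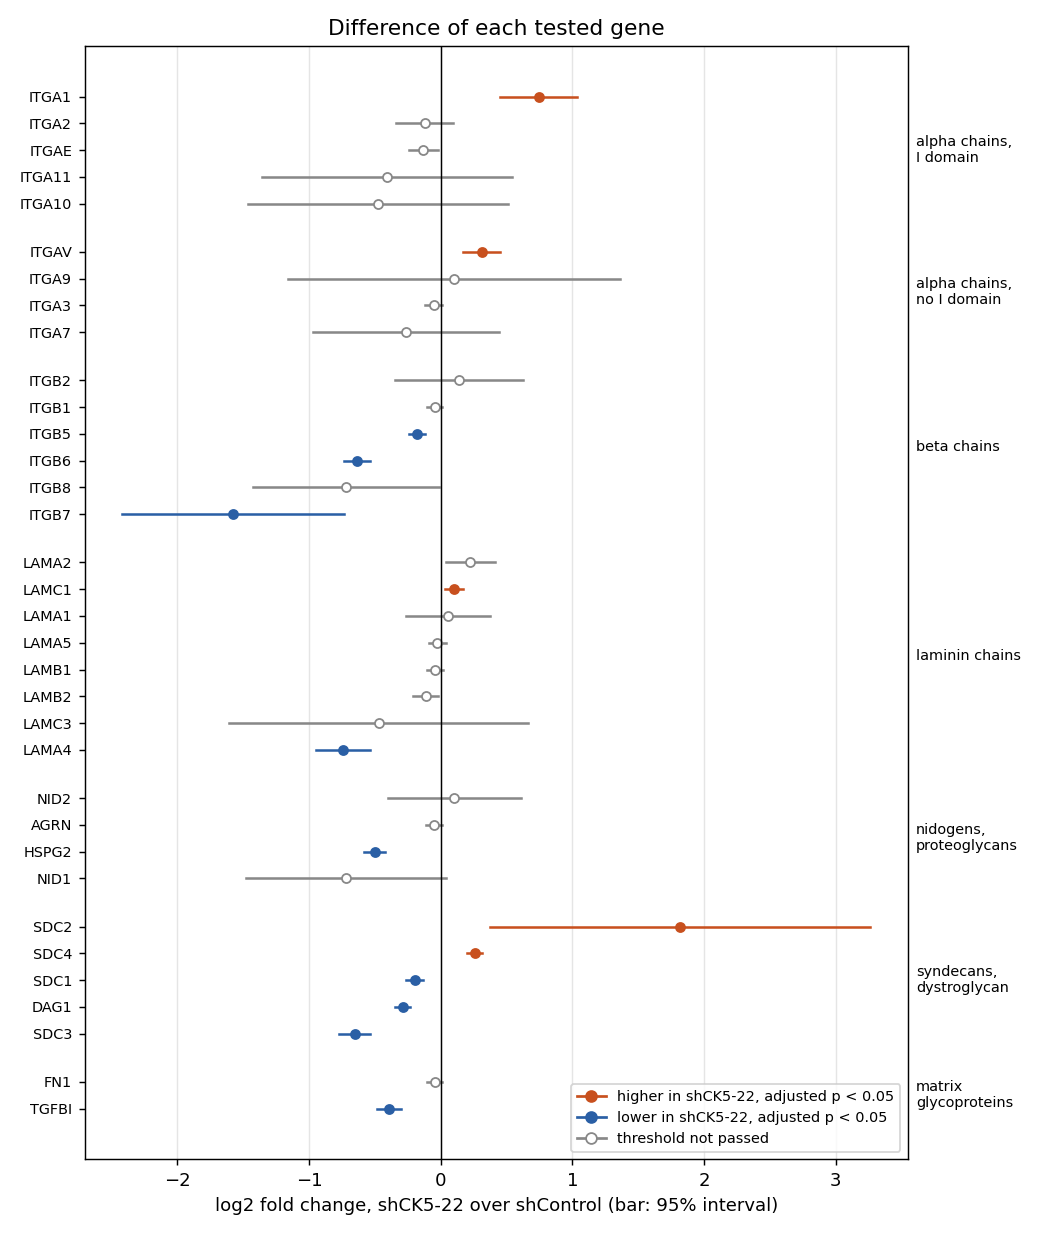
Log2 fold change of shCK5-22 over shControl for the 34 tested genes, ordered by class and then by size. Points are edgeR estimates and bars their 95% intervals; wide bars belong to genes with few counts, such as SDC2 and ITGB7, and the intervals of FN1, ITGB1 and ITGA3 are narrow and include 0.

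The alpha chains were dominated by ITGA3 and ITGA2. Of 5 tested alpha chains with an I domain 1 was higher and 0 lower (background 17.4% and 16.8% of all genes tested). The counts were 1 and 2 without shCK5-22 replicate 1 (background 16.8% and 16.7%). Of 4 tested alpha chains with no I domain 1 was higher and 0 lower, and without that library 1 was higher and 1 lower. ITGA3, a laminin-binding chain, stood at 840.6, 785.7 and 815.6 CPM in shCK5-22 and at 859.1, 823.2 and 852.2 CPM in shControl. The groups overlapped, and the log2 fold change was -0.05 (95% interval -0.12 to 0.01, adjusted p = 0.184). Leaving out shCK5-22 replicate 1 gave -0.08, which passed (adjusted p = 0.0422). ITGA2, a collagen-binding chain of epithelial cells, had 407.8, 331.6 and 369.6 CPM in shCK5-22 against 418.6, 382.8 and 404.4 CPM in shControl. Its groups overlapped only through shCK5-22 replicate 1. The log2 fold change was -0.12 (adjusted p = 0.36), and without that library it was -0.20 (adjusted p = 0.00405).

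ITGA1, another collagen-binding chain with an I domain, was higher in shCK5-22. It had 5.382, 4.901 and 4.693 CPM in shCK5-22, against 3.038, 3.542 and 2.363 CPM in shControl, on 146 to 351 counts per library. Every shCK5-22 library was above every shControl library. The difference was 1.68-fold (log2 0.75, SE 0.14, adjusted p = 0.000257). ITGA1 lies on chromosome 5 (52787896 to 52959210, plus strand, GRCh38). Of its exon bases 6.4% overlap other genes, and 5.6% overlap genes on the same strand, among them PELO. The part of these bases in the counts was not tested.

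ITGAV, the chain shared by the receptors for the RGD sequence of fibronectin and vitronectin, was also higher. It stood at 54.81, 49.8 and 48.9 CPM in shCK5-22 against 45.09, 37.18 and 41.8 CPM in shControl (chromosome 2, 186590065 to 186680901, plus strand). The groups did not overlap. The rise was 1.24-fold (log2 0.31, SE 0.0641, adjusted p = 0.00153).

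ITGAE, whose protein pairs with that of ITGB7 and binds E-cadherin, had 26.29, 26.15 and 25.07 CPM in shCK5-22 against 29.05, 28.75 and 27.34 CPM in shControl. These groups did not overlap, but the test was just missed (log2 fold change -0.13, adjusted p = 0.0549). It was passed without shCK5-22 replicate 1 (log2 fold change -0.15, adjusted p = 0.0471). The remaining alpha chains were listed at low counts. ITGA7, ITGA9, ITGA10 and ITGA11 had 2 to 38 counts per library, and their log2 fold changes, between -0.47 and 0.10, did not pass. ITGA4 and ITGA8, chains of leukocytes and of kidney and smooth muscle, had at most 4 counts in any library.

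Of 6 tested beta chains 3 were lower (background 16.8% of all genes tested), and 5 were lower without shCK5-22 replicate 1 (background 16.7%). The best expressed was ITGB1, the partner of most alpha chains. It had 1838, 1718 and 1766 CPM in shCK5-22 and 1824, 1837 and 1834 CPM in shControl. The groups overlapped (log2 fold change -0.05, 95% interval -0.11 to 0.01, adjusted p = 0.231). It was -0.07 without shCK5-22 replicate 1 and then passed (adjusted p = 0.0465).

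ITGB5 and ITGB6, whose products pair with that of ITGAV, were lower where ITGAV was higher. ITGB6, a chain of epithelial cells that helps to activate latent TGF-beta, had 49.6, 44.5 and 45.1 CPM in shCK5-22 against 74.4, 68.1 and 73.9 CPM in shControl. All 3 shCK5-22 libraries were well below all 3 shControl libraries. ITGB6 was 1.55-fold lower (log2 fold change -0.64, SE 0.0477, adjusted p = 1.45e-09) and lies on chromosome 2 (160099666 to 160200313, minus strand), where 20.6% of its exon bases overlap another gene on the same strand.

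ITGB5, a vitronectin receptor chain, had 259.8, 247.6 and 256.6 CPM in shCK5-22 against 290.0, 282.7 and 291.4 CPM in shControl. The groups did not overlap, and the fall was small at 1.13-fold (log2 fold change -0.18, adjusted p = 6.12e-05). ITGB8, the other chain known for activating TGF-beta, had 36.05, 20.76 and 24.54 CPM in shCK5-22 against 52.04, 39.02 and 43.46 CPM in shControl. The highest shCK5-22 value, that of replicate 1, lay just under the lowest shControl value. In shControl replicate 1 was also the highest. The log2 fold change of -0.72 did not pass (SE 0.26, adjusted p = 0.115). It passed without shCK5-22 replicate 1, at -0.98 (adjusted p = 0.015), and with DESeq2 (adjusted p = 0.0257). With the replicate number as a block in edgeR it passed as well (adjusted p = 6.81e-08).

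ITGB7, a chain of lymphocytes, fell 2.99-fold on few counts. It had 18, 6 and 14 counts in shCK5-22 libraries against 23, 54 and 38 counts in shControl libraries (adjusted p = 0.00413). It met the filter on low counts through the shControl libraries, since shCK5-22 replicate 2 lay below it. A difference was therefore in part built into its inclusion. Of its exon bases 42.1% overlap a gene on the opposite strand, so the source of these counts is uncertain. ITGB2, the common beta chain of leukocytes, had 0.749 to 1.4 CPM across all libraries and did not pass.

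For a picture of the repertoire, levels were divided by exon length and each chain was given as a share of its class. ITGA3 made up 54.9% ± 1.12 of the alpha chain level in shCK5-22 and 55.2% ± 0.558 in shControl (SD, n = 3 each). ITGA2 made up 30.8% ± 1.53 and 32.5% ± 0.439. ITGAV had 4.12% ± 0.151 in shCK5-22 and 3.22% ± 0.21 in shControl, and ITGA6, which belongs to the hemidesmosome, 7.32% ± 0.258 and 6.07% ± 0.0668. So ITGA3 and ITGA2 stayed the leading chains in both groups. ITGB1 held 71.0% ± 0.338 of the beta chain level in shCK5-22 and 70.0% ± 0.442 in shControl. ITGB4, which is outside the set but counted in this level, held 16.7% ± 0.463 and 15.4% ± 0.42. ITGB5 held 9.5% ± 0.119 and 10.3% ± 0.148. ITGB6 held 2.38% ± 0.0763 in shCK5-22 and 3.53% ± 0.167 in shControl, a gap wider than either SD. No test was run on these shares, and chains listed at 0 count as 0 in them.

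**Figure D2:**
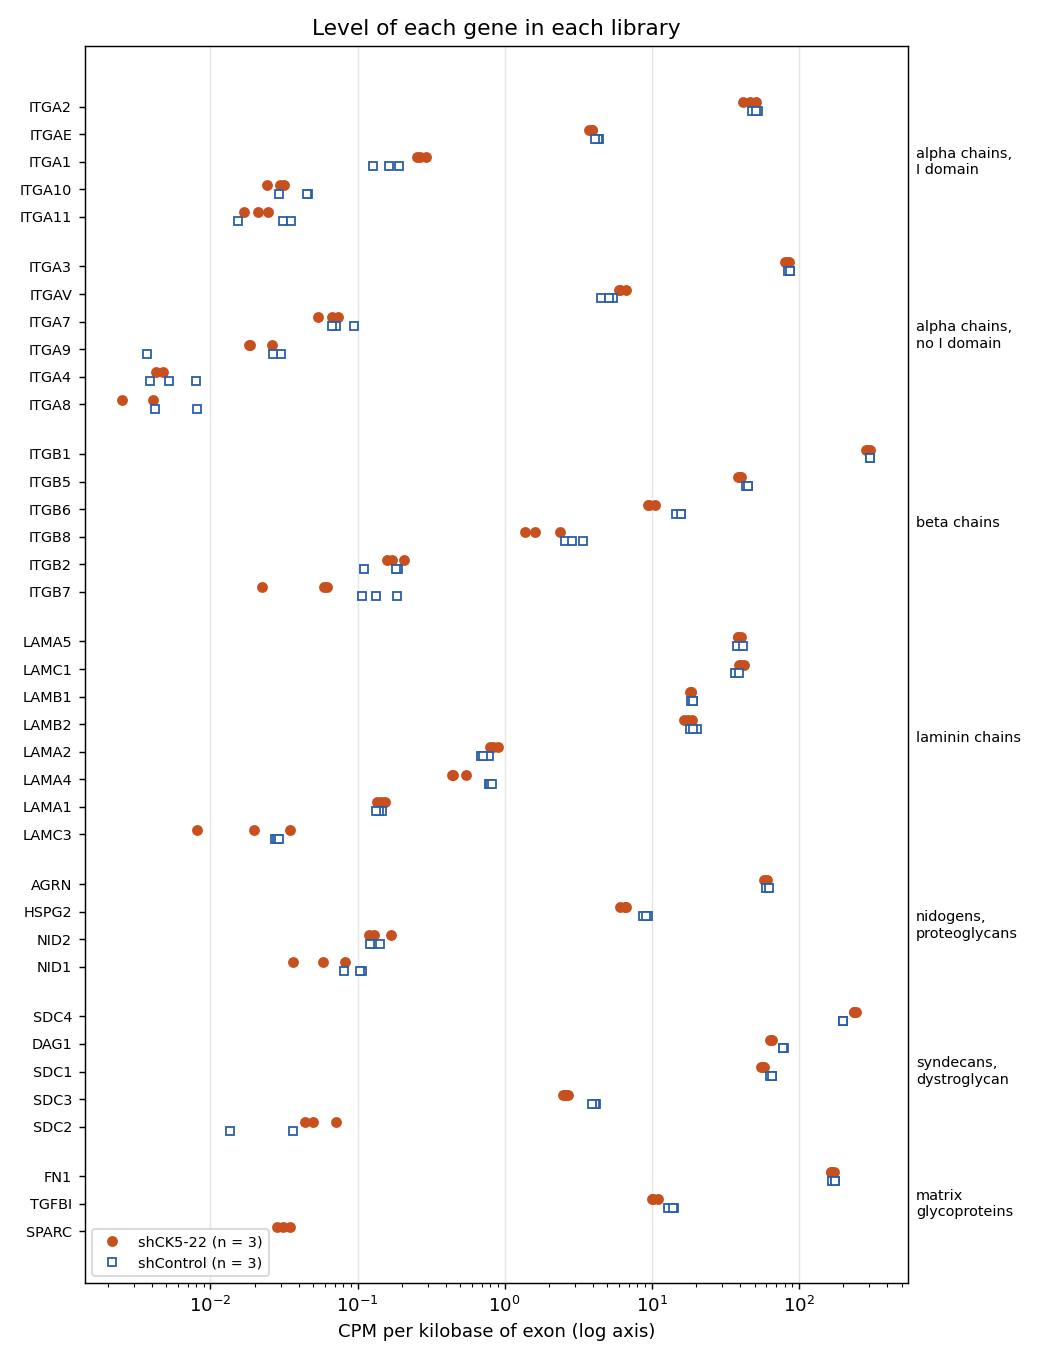
Level of each gene in each library, in CPM per kilobase of exon on a log axis, ordered by class and by level. Filled circles are shCK5-22 and open squares shControl libraries; libraries with a count of 0 are not drawn, so ITGA5 and ITGB3 are absent and SPARC has shCK5-22 points only.

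The promoters of ITGB6 and ITGAV are shown because the products of these genes form a receptor together while their transcripts moved in opposite directions. Each line gives the 250 bases before the RefSeq start (GRCh38.p14), on the strand of the gene, with capitals for matches to the motifs searched on both strands. The AP-1 motif was searched as TGANTCA. The TEAD motif was GGAATG, and the GC box was GGGCGG. The E-box form bound by ZEB repressors was CACCTG, and the TATA box was TATAAA. Windows were chr2:160200273-160200522 (minus strand) for ITGB6 and chr2:186589806-186590055 (plus strand) for ITGAV.
ITGB6: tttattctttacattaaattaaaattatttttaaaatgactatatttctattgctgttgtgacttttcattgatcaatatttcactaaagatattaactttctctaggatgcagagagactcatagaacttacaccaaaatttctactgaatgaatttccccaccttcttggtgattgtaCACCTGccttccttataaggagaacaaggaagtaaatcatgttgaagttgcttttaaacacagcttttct
ITGAV: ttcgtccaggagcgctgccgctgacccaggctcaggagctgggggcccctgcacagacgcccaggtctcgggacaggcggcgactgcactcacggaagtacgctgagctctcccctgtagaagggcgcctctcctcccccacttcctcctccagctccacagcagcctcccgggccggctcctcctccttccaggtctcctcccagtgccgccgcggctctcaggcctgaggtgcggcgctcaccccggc
The ITGB6 window is 30% G and C and holds 1 match, a CACCTG that begins 70 bases before the start. The ITGAV window, 1 of 2 listed for this gene, is 70.8% G and C and holds no match to the 5 motifs. CACCTG occurs in 17.5% of the 35116 promoter windows of the same length, so a single match is common. A match is a description of the letters, not a site.

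Of the 8 laminin chains 1 was higher and 1 lower, or 25% changed, against 34.2% of all genes tested. The counts were 0 and 2 without shCK5-22 replicate 1 (background 16.8% higher and 16.7% lower). The best expressed per exon length were LAMC1 and LAMA5, followed by LAMB1 and LAMB2, the chains of the common epithelial laminins. LAMA5 had 574.3, 552.9 and 555.6 CPM in shCK5-22 and 573.0, 546.5 and 592.1 CPM in shControl. The groups overlapped (log2 fold change -0.02, 95% interval -0.09 to 0.04, adjusted p = 0.599). LAMC1, the gamma chain of most laminins, had 355.3, 330.0 and 338.9 CPM in shCK5-22 against 314.6, 310.9 and 330.4 CPM in shControl. Its groups overlapped slightly, and its rise of 1.07-fold (adjusted p = 0.021) was lost when shCK5-22 replicate 1 (adjusted p = 0.0844), shCK5-22 replicate 3 (0.0566), shControl replicate 1 (0.104) or shControl replicate 2 (0.113) was left out.

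LAMA4, an alpha chain of vessel and mesenchymal basement membranes, was the laminin chain that fell. It had 6.33, 5.19 and 5.09 CPM in shCK5-22 against 9.11, 9.15 and 9.56 CPM in shControl (chromosome 6, 112108760 to 112254939, minus strand). The groups were well apart. LAMA4 was 1.67-fold lower (log2 fold change -0.74, SE 0.0988, adjusted p = 4.52e-06). LAMA2, the alpha chain of muscle laminin, averaged 8.78 ± 0.554 CPM in shCK5-22 and 7.54 ± 0.517 CPM in shControl (SD, n = 3 each), without overlap. Its log2 fold change of 0.22 missed the test (adjusted p = 0.0594).

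LAMB1 had 149.1 ± 1.69 CPM in shCK5-22 and 153.5 ± 2.65 CPM in shControl, without overlap but short of the threshold (log2 fold change -0.04, adjusted p = 0.318). LAMB2 had 121.3 ± 6.95 CPM in shCK5-22 and 131.3 ± 7.21 CPM in shControl (log2 fold change -0.11, adjusted p = 0.0602), and passed without shCK5-22 replicate 1 (adjusted p = 0.00304). LAMA1, the chain of embryonic basement membranes, and LAMC3 were listed at low levels. LAMA1 averaged 2.30 and 2.22 CPM in shCK5-22 and shControl, and LAMC3 had 4 to 14 counts per library. Neither passed.

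Of the proteins that link laminin to collagen IV and the cell surface, perlecan changed. HSPG2, its gene, had 120.9, 109.6 and 118.6 CPM in shCK5-22 against 171.4, 158.5 and 164.7 CPM in shControl (chromosome 1, 21822245 to 21937297, minus strand). No shCK5-22 library reached the shControl range. The fall was 1.42-fold (log2 fold change -0.50, SE 0.0385, adjusted p = 3.08e-09), and 11.7% of the exon bases overlap a gene on the opposite strand.

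AGRN encodes agrin, the other large heparan sulfate proteoglycan of the set, and was the more abundant of the pair. It had 650.6, 623.6 and 643.3 CPM in shCK5-22 and 667.3, 644.5 and 676.9 CPM in shControl. The groups overlapped (log2 fold change -0.05, 95% interval -0.11 to 0.01, adjusted p = 0.177). The nidogens, which bridge laminin and collagen IV, were scarce. NID2 had 39 to 70 counts and NID1 14 to 40 counts per library, with log2 fold changes of 0.10 and -0.72 that did not pass.

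Among syndecans and dystroglycan, SDC4 was higher and SDC1, SDC3 and DAG1 lower, with and without shCK5-22 replicate 1. With SDC2, 2 of 5 were higher and 3 lower (background 17.4% and 16.8% of all genes tested). Without that library the counts were 1 and 3 (background 16.8% and 16.7%). SDC4, a syndecan that joins integrins in focal adhesions, was the most abundant per exon length. It had 616.2, 640.1 and 623.4 CPM in shCK5-22 against 524.8, 520.2 and 525.0 CPM in shControl (chromosome 20, 45325288 to 45348424, minus strand). The groups were far apart relative to their spread. The rise was 1.197-fold (log2 0.26, SE 0.0272, adjusted p = 1.63e-07).

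SDC3 fell. It had 17.62, 18.13 and 19.11 CPM in shCK5-22 against 29.67, 29.1 and 27.57 CPM in shControl (chromosome 1, 30869467 to 30908761, minus strand). The groups did not overlap, and the level was 1.57-fold lower (log2 fold change -0.65, SE 0.0576, adjusted p = 1.22e-08). SDC1, the main syndecan of epithelia, had 206.7, 198.9 and 207.9 CPM in shCK5-22 against 236.6, 229.0 and 237.7 CPM in shControl, 1.15-fold lower (adjusted p = 2.38e-05). SDC4 made up 80.1% ± 0.665 of the syndecan level per exon length in shCK5-22 and 74.3% ± 0.251 in shControl, and SDC1 19.0% ± 0.648 and 24.1% ± 0.282 (SD, n = 3 each).

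SDC2, a syndecan of mesenchymal cells, had 21, 12 and 12 counts in shCK5-22 and 8, 4 and 0 counts in shControl. It entered the test only through the shCK5-22 libraries, so a difference was built into its inclusion. The log2 fold change of 1.82 passed narrowly (SE 0.692, adjusted p = 0.0481) and did not pass without any 1 of the shCK5-22 libraries (adjusted p = 0.147, 0.0586 and 0.0957 for replicates 1, 2 and 3), without shControl replicate 2 (0.151) or replicate 3 (0.21), or with library size only (0.0546).

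DAG1, whose product is cleaved into the laminin-binding and membrane-spanning parts of dystroglycan, had 453.4, 441.5 and 447.1 CPM in shCK5-22 against 551.6, 542.1 and 544.3 CPM in shControl. The replicates were tight and the groups apart. DAG1 was 1.22-fold lower (log2 fold change -0.29, SE 0.0269, adjusted p = 3.14e-08; chromosome 3, 49468703 to 49535618, plus strand).

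The SDC3 and SDC4 promoters are shown because these paralogs moved in opposite directions. Marking is as for ITGB6, and the windows were chr1:30908759-30909008 and chr20:45348425-45348674, both on the minus strand.
SDC3: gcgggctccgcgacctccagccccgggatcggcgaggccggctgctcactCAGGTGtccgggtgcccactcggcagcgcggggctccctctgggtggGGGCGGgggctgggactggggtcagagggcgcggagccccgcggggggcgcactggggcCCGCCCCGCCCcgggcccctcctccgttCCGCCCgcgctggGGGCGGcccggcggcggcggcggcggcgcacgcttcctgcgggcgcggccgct
SDC4: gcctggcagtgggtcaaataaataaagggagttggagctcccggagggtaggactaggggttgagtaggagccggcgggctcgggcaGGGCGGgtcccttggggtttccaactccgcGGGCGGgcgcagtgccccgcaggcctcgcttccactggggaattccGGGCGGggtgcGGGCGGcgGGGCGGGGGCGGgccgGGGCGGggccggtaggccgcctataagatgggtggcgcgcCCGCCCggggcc
Both windows are rich in G and C, at 83.6% and 73.6%. The SDC3 window holds 5 GC boxes and 1 CACCTG. Its GC boxes beginning 94 and 89 bases before the start share a base. The SDC4 window holds 8 GC boxes. GC boxes occur in 42.6% of all windows. Neither window holds a match to the AP-1, TEAD or TATA letters, which occur in 6.57%, 11.9% and 10.7% of all windows.

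**Figure D3:**
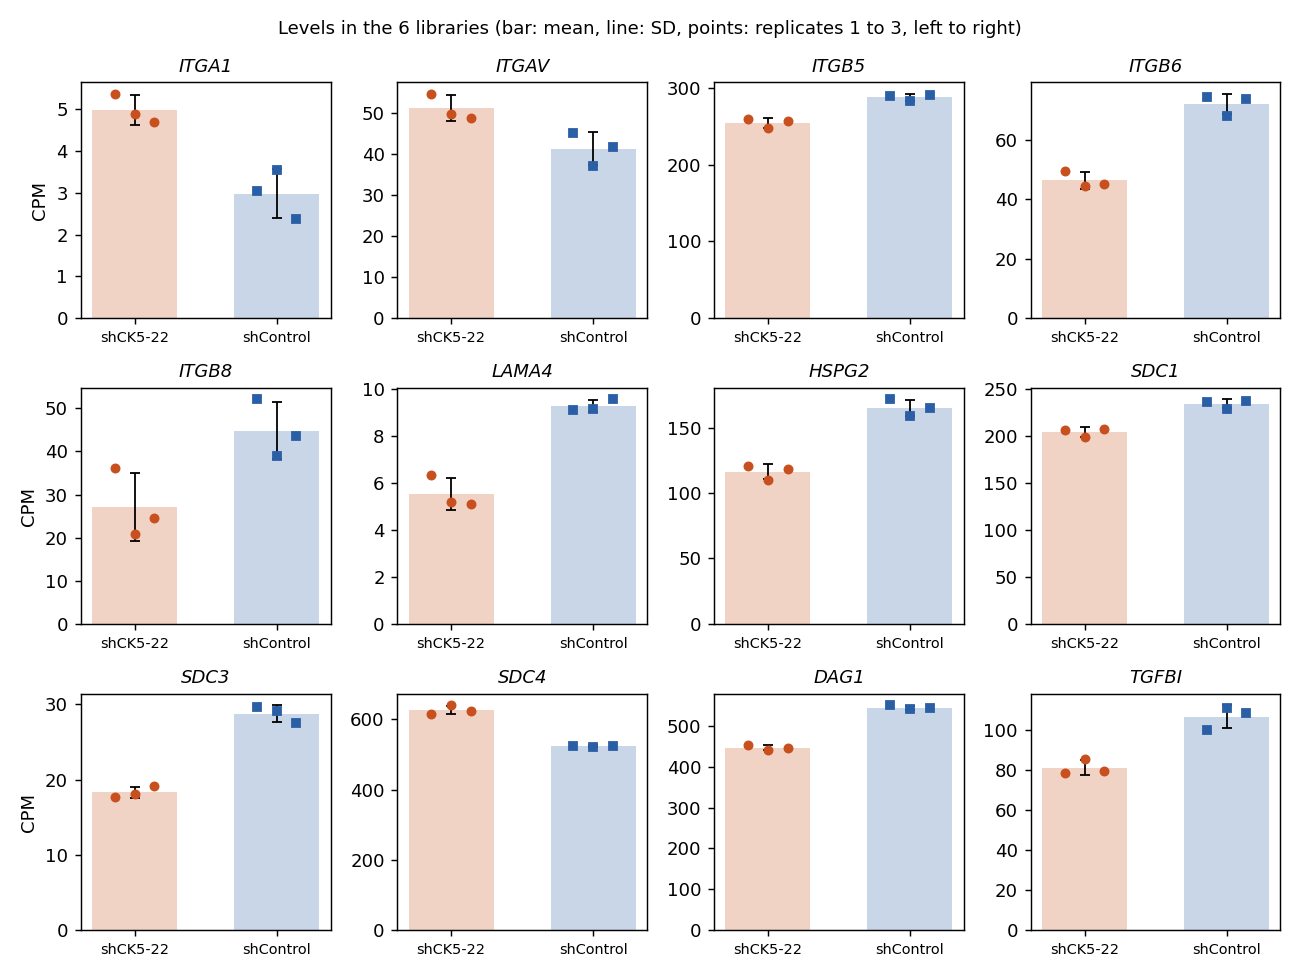
Level in CPM of 12 genes in the 6 libraries, shCK5-22 on the left and shControl on the right of each panel, with bars for means and lines for SD (n = 3 each). SDC4, ITGAV and ITGA1 are higher in shCK5-22, the others are lower, and in ITGB8 the first shCK5-22 library stands near the shControl values.

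FN1, which encodes fibronectin, was among the most abundant transcripts of the set. It had 2991, 2886 and 2861 CPM in shCK5-22 and 2931, 3054 and 3029 CPM in shControl. The groups overlapped (log2 fold change -0.04, 95% interval -0.10 to 0.01, adjusted p = 0.24). TGFBI, a TGF-beta-induced matrix protein that binds integrins and collagen, had 78.6, 85.8 and 79.8 CPM in shCK5-22 against 100.4, 111.2 and 109.0 CPM in shControl (chromosome 5, 136028895 to 136063818, plus strand). Its groups did not overlap, and it was 1.31-fold lower (log2 fold change -0.39, SE 0.0422, adjusted p = 4.18e-07).

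SPARC, a collagen-binding matricellular protein of fibroblasts and endothelium, had 9, 10 and 8 counts in shCK5-22 libraries and 0 in each shControl library. It did not pass the filter and was not tested. At these counts no fold is given.

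**Figure D4:**
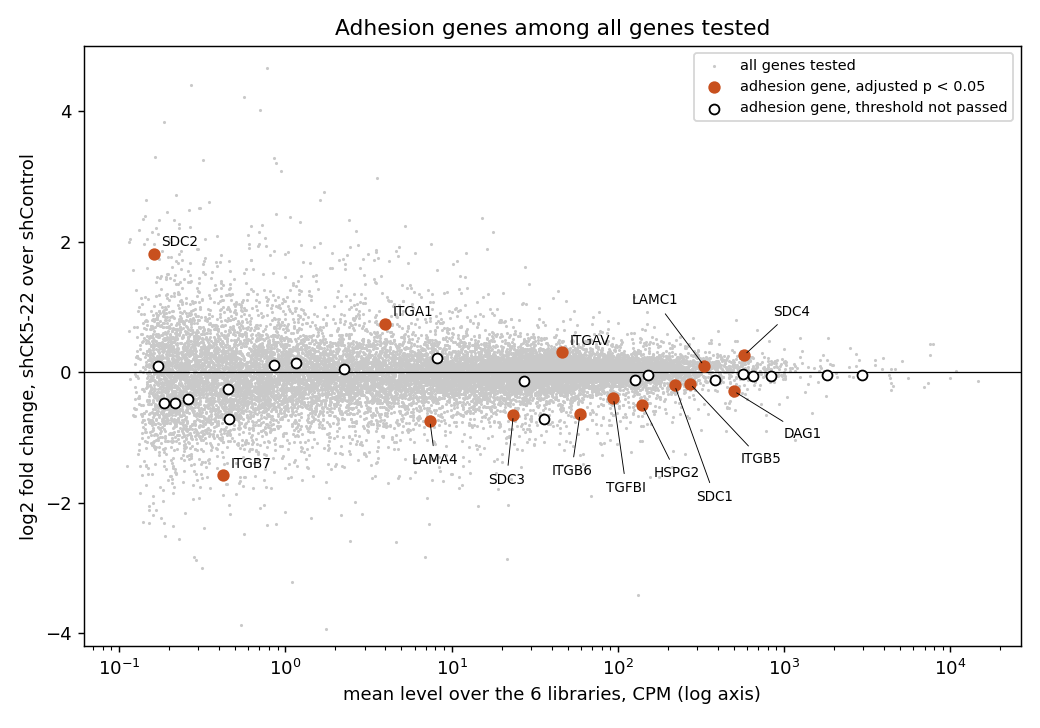
Log2 fold change of shCK5-22 over shControl against mean level (CPM, log axis) for all 18008 genes tested, in grey, with the adhesion genes on top. Filled points passed an adjusted p of 0.05; except for ITGB7, SDC2, ITGA1 and LAMA4, none lies farther from 0 than SDC3 at -0.65.

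Genes that work with these receptors were taken from lists set by function. Of 40 tested adapters, kinases and actin linkers of integrin adhesions, 14 were higher (background 17.4%) and 5 lower (background 16.8%). At 5 CPM or more 24.8% of all genes were higher and 22.2% lower. In either direction 47.5% of the list changed, against 34.2% of all genes tested and 47.0% of those at 5 CPM or more. The list also holds genes under 5 CPM, so only the 34.2% is a like share. The median log2 fold change of the list was 0.09, against -0.01 for all genes tested. Without shCK5-22 replicate 1 the counts were 16 higher (background 16.8%) and 4 lower (background 16.7%). SRC, the tyrosine kinase that acts with focal adhesion kinase, fell to 46.3 ± 0.971 CPM in shCK5-22, against 84.7 ± 3.22 CPM in shControl (adjusted p = 4.16e-13). TNS4, a tensin, and KANK1, a protein at the rim of adhesions, were also lower, by log2 fold changes of -0.64 and -0.56 (adjusted p = 1.73e-10 and 3.8e-08). Of the higher genes of the list, TLN1, the talin gene, rose by 0.24, ZYX, the zyxin gene, by 0.25 and FERMT2 by 0.35 on the log2 scale. ILK, the integrin-linked kinase, was listed at 67 to 131 counts per library and GIT1 at 0. Since some genes are listed too low in these counts, neither value is read as a true level.

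Among 25 tested matricellular and other integrin ligands, 4 were higher and 5 lower (median -0.01), or 36% changed, near the 34.2% of all genes tested. These counts were 4 and 4 without shCK5-22 replicate 1 (background 16.8% higher and 16.7% lower). FBN1, the fibrillin gene, stood at 13.9 ± 1.74 CPM in shCK5-22 and 7.06 ± 0.542 CPM in shControl (adjusted p = 7.16e-08). ICAM1, a ligand of leukocyte integrins, had 42.7 ± 0.571 and 24.1 ± 0.714 CPM (adjusted p = 2.34e-11). NTN4, a netrin that binds laminin, was lower at 56.1 ± 1.78 and 83.6 ± 3.28 CPM (adjusted p = 3.77e-10).

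Of 19 tested basement membrane collagens and other matrix components, 7 were higher and 5 lower (median -0.08). In either direction 63.2% changed, against 34.2% of all genes tested and 47.0% of those at 5 CPM or more. This list also holds genes under 5 CPM, so only the 34.2% is a like share. Without shCK5-22 replicate 1, 6 were higher (background 16.8%) and 6 lower (background 16.7%). COL7A1, the anchoring fibril collagen, COL18A1 and LOXL2, a lysyl oxidase, rose by 0.69, 0.59 and 0.44 on the log2 scale. COL4A1 and COL4A2, the chains of the common collagen IV, rose by 0.39 and 0.22. The 5 that fell were COL4A4, COL4A6, PXDN, SPOCK1 and MATN2, with log2 fold changes of -0.36, -0.29, -0.15, -0.24 and -0.33. Of 21 other matrix receptors and tetraspanins, 7 were higher and 8 lower (median 0.01), or 71.4% changed, with the same shares of all genes beside it. That list, too, holds genes under 5 CPM. Without shCK5-22 replicate 1, 7 of 22 were higher (background 16.8%) and 7 lower (background 16.7%). The tetraspanin CD82 rose by 0.79, and the glypicans GPC4 and GPC1 were lower, by log2 fold changes of -0.69 and -0.57.

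Integrin and laminin chains outside the set include those of the hemidesmosome. LAMB3 and ITGA6 rose by 0.26 and 0.22 on the log2 scale, and LAMA3 was lower, at -0.11 (adjusted p = 0.00576). ITGB4 had a log2 fold change of 0.04 and did not pass (adjusted p = 0.29). ITGA2B, a platelet chain, had 0.985 and 0.79 CPM in shCK5-22 and shControl and did not pass. ITGAM, a leukocyte chain that pairs with ITGB2, had 120, 142 and 130 counts in shCK5-22 against 56, 56 and 48 counts in shControl, 2.42-fold higher (adjusted p = 4.88e-05). Of the 12 leukocyte markers 3 were tested and none of these passed. PTPRC, the general leukocyte marker, averaged 0.238 CPM in shCK5-22 and 0.404 CPM in shControl (adjusted p = 0.178).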

How the data were processed

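The deposited table gives counts as whole numbers, 1 row for each gene symbol, with no normalization. Cutadapt, STAR, SAMtools, Cufflinks and the GRCh38 build are named in the submitters' processing notes. The counting program, its annotation and its use of strand and shared reads are not stated in any label or header used here. Of 56505 rows, 27 held a calendar date in place of a symbol and were left out (0.167% to 0.175% of a library). Between 84.2% and 86.9% of counts from 1 to 50 were even numbers. The reason was not tested.

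Groups and replicate numbers come from the sample titles. Nothing in the labels ties the replicates to separate cultures. P-values therefore measure only how far these libraries spread, and that spread may be technical. The comparison was fitted on all genes with edgeR 4.0.16 (R 4.3.3), by the robust quasi-likelihood test with TMM normalization and filterByExpr, in the 6 libraries. P-values are two-sided and adjusted by Benjamini-Hochberg over 18008 genes, with a threshold of 0.05. The SE was taken as the log2 fold change over the root of F. A count of 3 in 1 library is 0.0459 to 0.063 CPM.

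Exon lengths, overlaps and coordinates come from GENCODE 29 on GRCh38, and promoters from RefSeq, which held 30 of the 39 genes. The other matrix ligand list used 4 older symbols. The members, lists and rules were chosen with earlier results of these data known. Named are all 39 genes, KRT5, the 3 largest changes past the threshold per list at a mean of at least 5 CPM, and the tested integrin and laminin chains outside the set, of which 1 is not reported here. Other genes named were chosen after their values were seen. They were TLN1, ZYX, FERMT2, COL4A1, COL4A2, COL4A4, COL4A6, PXDN, SPOCK1, MATN2, PDGFRB, LUM, COL1A1, FAP, ILK, GIT1, PTPRC, CSPG4 and GPC6. Alternatives were other normalizations and filters, DESeq2 1.42.0, limma 3.58.1 (voom), a minimum fold of 1.2, the replicate number as a block, each library left out and, chosen after seeing the data, halved counts and the class and list counts without shCK5-22 replicate 1.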

Additional observations from a re-analysis of the deposited data

How the results depend on the processing

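Over the alternatives tried, KRT5 kept its direction and its side of the threshold. HSPG2, ITGB6, LAMA4, SDC3, TGFBI, ITGA1 and ITGB7 did so in every alternative in which they were tested. With library size only, 3 of the adhesion genes were higher, and 5925 of 18008 genes changed, 46.8% of them higher. Against a minimum fold of 1.2, 1642 of 18008 genes passed, 41.8% of them higher, since small differences cannot pass it. Of the adhesion genes 1 was higher and 6 were lower. In the lists 3 adapters and linkers, 5 matricellular ligands, 5 other matrix receptors, 4 basement membrane components and 1 outside integrin or laminin chain changed. ITGAV, SDC4, SDC1, SDC2, DAG1, ITGB5 and LAMC1 did not pass that test. Leaving out 1 library at a time gave between 3 and 5 adhesion genes higher and between 9 and 15 lower. Between 4910 and 6185 genes changed in all, and 49.6% to 51.5% of these were higher. 5 values near 0 that had not passed changed sign when 1 library was left out: NID2 (log2 fold change -0.0564 without shCK5-22 replicate 1, highest 0.2025), ITGA9 (-0.0926 without shCK5-22 replicate 2 and -0.4284 without shControl replicate 2, highest 0.463), ITGB2 (-0.0583 without shControl replicate 1, highest 0.2707) and LAMA5 (0.0025 without shControl replicate 3, lowest -0.056). The cause was not tested. With the replicate number as a block, 6 adhesion genes were higher and 13 lower. In all 6743 of 18008 genes changed, 51.3% of them higher. ITGB8 passed with the block in edgeR (log2 fold change -0.75, adjusted p = 6.81e-08). Deviations of libraries with the same number correlated at 0.016, 0.052 and -0.007 over all genes tested. By this measure shCK5-22 replicates 1 and 3 correlated better with another number than with their own. A correlation over all genes cannot decide whether the numbers pair the samples for single genes. For ITGB8 replicate 1 was the highest and replicate 2 the lowest in both groups. Halved counts left 5 adhesion genes higher and 9 lower of 29 tested, and 6172 of 16259 genes changed, 50.4% of them higher. Genes under about 50 counts per library, such as SDC2, ITGB7, NID1 and SPARC, are limited by depth.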

Other observations

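Beyond the genes above, some surface proteoglycans of low level were higher in shCK5-22; they were picked after their values were seen. CSPG4, a chondroitin sulfate proteoglycan, averaged 5.84 CPM in shCK5-22 and 3.50 CPM in shControl (edgeR, log2 fold change 0.74, adjusted p = 0.000167). GPC6, a glypican, averaged 1.71 and 0.912 CPM (edgeR, log2 fold change 0.89, adjusted p = 0.00292), while its relatives GPC1 and GPC4 were lower.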
